A study of Rattus norvegicus with 30 samples.

Results

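The 36 genes described here encode the proteins that carry a cell through mitosis and cytokinesis, from the cyclins that start mitosis to the enzymes that end it. They were chosen by name, as a list of genes with these roles, with earlier results of these data known. All 36 were found among the 17353 gene symbols of the deposited expression table. The list covers entry into mitosis, chromosome structure, the kinases of the spindle, attachment of chromosomes and the checkpoint that monitors it, movement on the spindle, cleavage of the cell, and the protein destruction that ends mitosis. Transcription of such genes is low in non-dividing cells and rises toward the end of the cell cycle. In the textbook account the DREAM complex holds their promoters silent in quiescence, and complexes with B-Myb and then FoxM1 activate them in dividing cells, in both cases through a promoter element called CHR (cell cycle genes homology region). Replication genes, which are needed earlier in the cycle, are known for E2F sites instead.

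The cells were REF, a line of rat embryonic fibroblasts recorded as not transformed. One group was left with serum (control), and the other 9 groups went without serum for 2, 3, 4, 6, 8, 10, 12, 14 or 16 days. Each group held 3 libraries described as biological replicates, 30 in all, made from total RNA. What separates the replicates is not stated, so every p-value below measures the spread between these libraries, which may be partly technical. Serum deprivation takes fibroblasts out of the cell cycle, and the series concerns how deep the resulting quiescence becomes with time. All values are FPKM (fragments scaled to transcript length and to the mapped fragments of the library), listed as library 1, 2 and 3 of a group unless a mean ± SD (n = 3) is given. The number of reads behind each value is unknown.

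The cell type label was checked against marker genes. The fibroblast genes Vim (3567 to 5655 FPKM), Fn1 (859 to 8717), Col1a1 (679 to 6503), Col3a1 and Pdgfrb were high in every library, whereas Col1a2 was listed at 0, Thy1 reached 0.230 at most, and Pdgfra and Dcn stayed at 2.16 or below. Of the 6 leukocyte, 5 endothelial and 6 epithelial markers only Krt8 had a mean above 1 FPKM; Adgre1, Cdh5, Kdr and Tie1 were listed at 0 throughout and Ptprc and Epcam reached 0.0336 and 0.0648. The summed leukocyte markers lay between 0.245 and 7.40 FPKM and the endothelial ones between 0.0263 and 0.441. The highest leukocyte markers were Csf1r, up to 4.62 FPKM, and Cd14, up to 3.09. In every group library 1 stood apart from libraries 2 and 3. Its score on the main axis of within-group variation (28.7% of the variance) was -17.8 to -5.79, and the scores of libraries 2 and 3 were 0.765 to 12.96. Library 2 of day 4 stood apart for the mitosis genes themselves, being the highest of its group in 36 of 36.

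Promoter sequence was available in RefSeq (rat build GRCr8, which is not the rn6 build the submitters used) for 29 of the 36 genes, as windows from 250 bases before to 50 bases after the transcript start. Ccna2, Aurkb, Tpx2, Incenp, Ube2c, Foxm1 and Racgap1 had no window. Each window was searched on both strands for the CHR letters TTTGAA, the CCAAT box CCAAT, and 4 E2F-type words (TTTGGCGC, TTTCCCGC, TTTGGCGG and TTTCCCGG). Of the 29 genes, 22 (75.9%) held TTTGAA in any window, against 19.4% of all 27457 genes with a window. CCAAT was in 21 of the 29 (72.4%), against 39.6% of all genes. Both words were in 17 of the 29 (58.6%), against 7.41% of all 33469 windows, a share per window and not per gene. An E2F-type word was in 1 of 29 (3.45%, Birc5), against 3.73% of all genes. Of 34 DNA replication genes with a window, 3 (8.82%) held TTTGAA, 21 (61.8%) CCAAT and 19 (55.9%) an E2F-type word. TTTGAA was also in 34 of 60 other mitosis genes (56.7%) and in 6 of 9 genes of the DREAM complex and its MuvB core (66.7%). These are matches of letters in a fixed window and not measured binding sites.

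The 120 bases before the start are printed for 8 genes, 5′ to 3′ on the strand of the gene, with TTTGAA and CCAAT in capitals on either strand (TTCAAA and ATTGG are the same words on the other strand). Ccnb2 (chr8:79981659-79981778, minus strand), Cdk1 (chr20:19265173-19265292, plus), Cdc20 (chr5:137255800-137255919, minus), Top2a (chr10:84473094-84473213, minus) and Cks2 (chr17:13727520-13727639, minus) show both words. Birc5 (chr10:103572026-103572145, plus) shows TTTGAA alone in these bases. Cdca3 (chr4:159321083-159321202, plus) shows CCAAT alone and Bub1 (chr3:135504922-135505041, minus) shows neither. The last 2 are printed as examples without the CHR letters.
Ccnb2: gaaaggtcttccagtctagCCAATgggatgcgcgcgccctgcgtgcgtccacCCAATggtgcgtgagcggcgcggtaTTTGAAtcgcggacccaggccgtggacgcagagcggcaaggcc
Cdk1: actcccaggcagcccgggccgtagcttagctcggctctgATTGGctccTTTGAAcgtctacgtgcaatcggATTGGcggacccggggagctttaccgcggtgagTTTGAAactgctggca
Cdc20: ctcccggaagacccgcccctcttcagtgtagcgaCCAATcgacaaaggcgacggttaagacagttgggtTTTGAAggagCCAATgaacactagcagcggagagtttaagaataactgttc
Top2a: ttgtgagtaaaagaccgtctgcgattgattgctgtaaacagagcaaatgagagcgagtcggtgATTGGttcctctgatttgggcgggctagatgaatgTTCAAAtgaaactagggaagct
Birc5: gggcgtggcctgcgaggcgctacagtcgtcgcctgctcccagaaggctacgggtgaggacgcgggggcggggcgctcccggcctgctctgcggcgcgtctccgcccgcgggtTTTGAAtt
Cks2: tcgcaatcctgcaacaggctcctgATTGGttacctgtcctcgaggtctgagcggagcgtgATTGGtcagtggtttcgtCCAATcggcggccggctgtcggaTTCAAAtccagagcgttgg
Cdca3: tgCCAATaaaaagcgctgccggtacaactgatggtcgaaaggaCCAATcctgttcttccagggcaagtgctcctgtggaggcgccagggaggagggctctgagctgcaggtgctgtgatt
Bub1: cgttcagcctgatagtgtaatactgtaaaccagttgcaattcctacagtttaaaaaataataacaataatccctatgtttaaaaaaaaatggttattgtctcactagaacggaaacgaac

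Besides Bub1 and Cdca3, the windows of Aurka, Ccnb1, Kif11, Kif20a and Kif2c held no TTTGAA. Of the 30 windows (Kif2c has 2), 23 had their start within 300 bases of the gene's outermost annotated end. The starts of Aurka, Kif11 and 1 of the windows of Kif2c, without TTTGAA, lay 2121, 41951 and 3714 bases inside it. Those of Birc5, Nuf2, Ttk and Kif23, which are among the 22 genes with the word, lay 4777, 35359, 1961 and 1327 bases inside it. Other starts of these genes were not searched. Every gene of the list fell at day 2, as described next, so genes with and without the word both did. Whether the depth of the fall differed between genes with and without the word was not tested.

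The overall course was a steep fall, a partial return at days 3 and 4, a long trough and a second partial return at day 16. The summed FPKM of the 36 genes was 3409, 3454 and 3707 in the control libraries and 105, 115 and 117 at day 2. It was 153, 180 and 178 at day 3, 183, 346 and 148 at day 4 and 73.8, 62.2 and 57.2 at day 6. From day 8 to day 12 every library lay between 29.5 and 37.1. At day 14 the sums were 32.5, 41.9 and 54.6, and at day 16 they were 118, 87.1 and 77.2, so that all day 16 libraries stood above all libraries of days 8 to 14. The highest starved library, library 2 of day 4, reached 9.82% of the control mean. In bulk RNA, fewer dividing cells and less of these RNAs in each cell cannot be told apart.

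**Figure D1:**
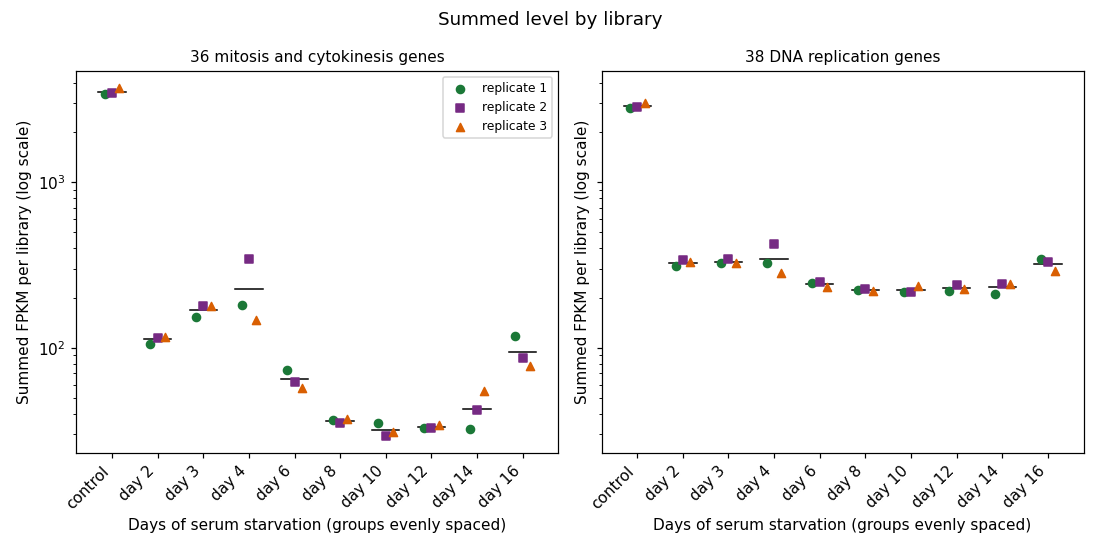
Summed FPKM (log scale) of the 36 mitosis and cytokinesis genes (left) and of 38 DNA replication genes (right) in each library, by days of serum starvation; symbols mark the replicate number and lines the mean of 3. The mitosis sum falls from 3409 to 3707 in control to between 29.5 and 37.1 at days 8 to 12, with library 2 of day 4 at 346.

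In single genes, the median of the 36 group means was 79.7 FPKM in control, 2.49 at day 2, 5.30 at day 4, 0.645 at day 8, 0.433 at day 12 and 2.19 at day 16. The mean of 29 of the 36 genes was under 1 FPKM at day 12, against 5 at day 2 and 6 at day 16. In all 36 genes every control library was above every starved library. The share of all genes with this trait was not computed, so the count is given as a description. In the 6 genes named at the end of this paragraph the filter favoured it. Day 4 was the highest starved group for 35 genes by the mean of its 3 libraries. Without library 2 of day 4 it was the highest for 12, and day 3 was the highest for 23. The lowest starved group was day 12 for 18, day 10 for 11, day 8 for 4 and day 14 for 3. Of the 36, 6 (Mki67, Ttk, Kif2c, Cenpa, Cenpf and Espl1) averaged under 1 FPKM over the 27 starved libraries; they passed the filter on low values (a mean of at least 1 FPKM over all libraries) through the control group, so that a fall at day 2 was bound to appear in them.

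**Figure D2:**
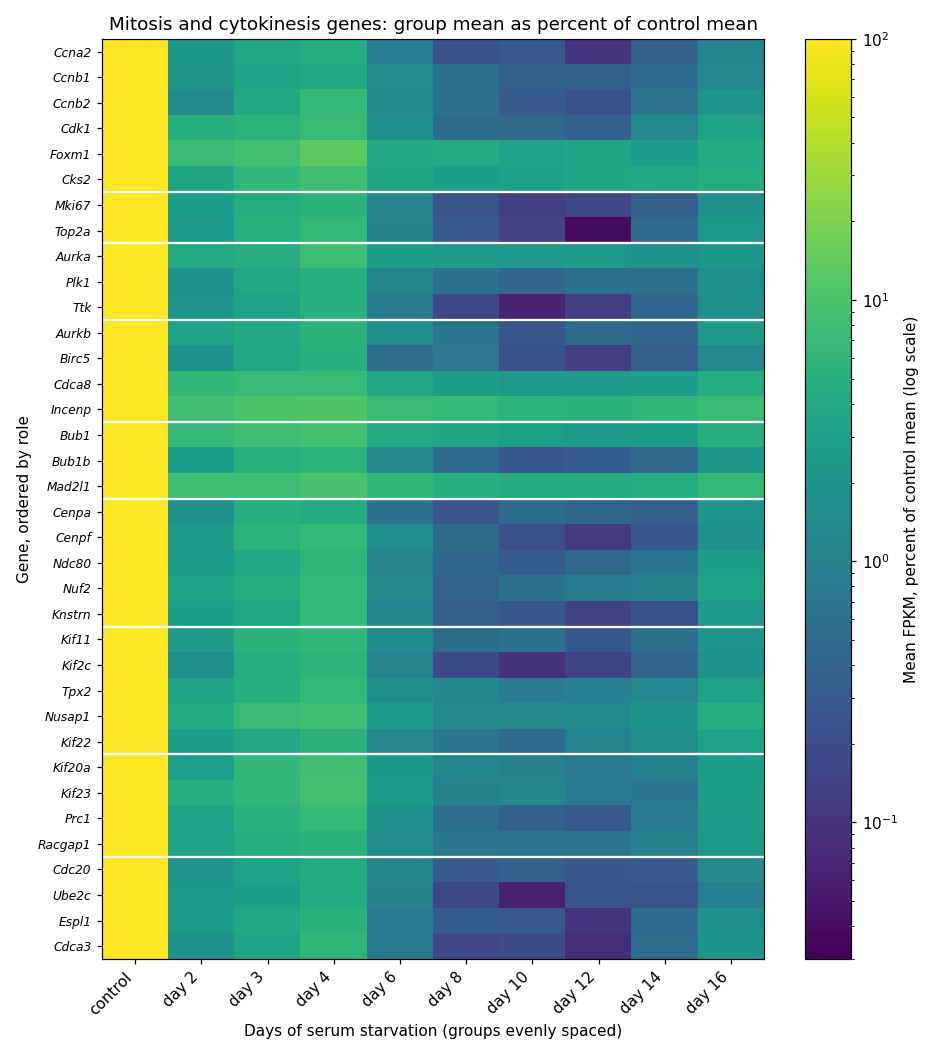
Mean FPKM of each gene as percent of its control mean (colour, log scale) by days of serum starvation, with genes ordered by role and white lines between roles. Most rows are darkest between day 8 and day 14 and lighter at days 4 and 16, while Incenp and Mad2l1 are the lightest rows at day 12, with means at 5.46% and 4.33% of control.

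The first comparison asks what 2 days without serum did to these genes. All 36 fell by day 2 (limma, adjusted p under 0.05 over the 8940 genes tested), where 30.7% of all genes tested were called lower. Their median change was -4.62 on the log2(FPKM + 1) scale, a level of 0.0408 of control, with a range of -5.56 to -3.18, and the median over all genes was 0.00. The summed leukocyte markers went from 7.30 ± 0.169 to 1.96 ± 0.189 FPKM (n = 3). Adgre1 was at 0 and Ptprc near 0 throughout, while Csf1r and Cd14 reached 4.62 and 3.09 FPKM at most over all libraries. The part of these markers in the fall of the 36 genes was not tested. In none of the 7 comparisons reported here did limma find a member moving against the rest, also at an unadjusted p under 0.05. All 36 had every day 2 library below every control library, as did 32.4% of all genes. Folds on this scale understate the change of genes near 0, so levels as percent of control are given from the FPKM themselves.

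Among the regulators of mitotic entry, the B cyclins and Cdk1, the kinase they activate, all fell. Ccnb2 (cyclin B2) was 139.8, 125 and 131 FPKM in control and 2.43, 1.78 and 1.34 at day 2. This was the largest fall of the 36, -5.56 ± 0.29 (SE, adjusted p = 8.16e-15). Ccnb1 (cyclin B1) went from 97.9, 92.9 and 103 to 1.96, 1.89 and 2.51 FPKM, or 2.16% of control. Ccna2 (cyclin A2, which acts from S phase into early mitosis) went from 127 ± 4.52 to 2.89 ± 0.834 FPKM. Cdk1 was 225, 195 and 227 FPKM in control and 9.14, 12.9 and 9.38 at day 2, whose mean of 10.5 was the highest of the 36 genes at that time. Cks2, a small subunit that binds Cdk1, was next at 9.96 ± 1.29 FPKM. Cks2 has related gene copies, and how the submitters assigned reads shared between copies is not given. Foxm1, the transcription factor that activates many of the others, had the smallest fall on the log2(FPKM + 1) scale, -3.18 ± 0.16 (SE, adjusted p = 3.4e-15). It went from 23.8, 24.6 and 25.2 to 1.86, 1.84 and 1.79 FPKM. Its day 2 level was 7.44% of control, above the median of 2.80% for the 36 genes and below the highest, 8.42% in Incenp.

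Both genes of chromosome structure fell. Mki67, which coats mitotic chromosomes and is the usual marker of dividing cells, was 40.0, 58.0 and 58.9 FPKM in control and 0.966, 1.79 and 1.75 at day 2. Top2a, the enzyme that untangles sister DNA, was 81.8, 113 and 119.7 FPKM in control and 1.87, 2.60 and 3.36 at day 2. The 3 genes grouped here as mitotic kinases fell too, on the log2(FPKM + 1) scale. Kinases listed under other roles, such as Cdk1 and Aurkb, are not counted in this group. Plk1, which acts at centrosomes, kinetochores and the cleavage site, fell by 37.1-fold. Ttk, which starts the spindle checkpoint, fell by 19.5-fold, and Aurka, a kinase of centrosomes and spindle poles, by 16.9-fold. Aurka was 52.8, 53.7 and 51.3 FPKM in control and 2.2, 2.98 and 1.52 at day 2.

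The 4 genes of the chromosomal passenger complex all fell, with different shares of control left. Its kinase Aurkb was at 3.24% and Birc5 (survivin) at 1.89% of control at day 2. Cdca8 (borealin) was at 6.52% and the scaffold Incenp at 8.42%, the highest of the 36. Incenp was 44.8, 50.5 and 49.8 FPKM in control and 3.67, 4.30 and 4.25 at day 2. A similar split was present in the spindle checkpoint: Bub1b (BubR1) was at 2.79% of control, Bub1 at 6.89% and Mad2l1 (Mad2) at 8.09%. Whether these genes differed from each other was not tested.

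At the centromere and kinetochore, Cenpa, the histone H3 variant that marks the centromere, fell from 47.3, 35.6 and 42.5 to 1.05, 0.339 and 0.812 FPKM. Ndc80 and Nuf2, partners in the complex that grips microtubules, were at 2.48% and 3.21% of control. Cenpf and Knstrn were at 2.62% and 2.70%. The spindle motors Kif11, which pushes the poles apart, Kif2c, which shortens microtubules, and Kif22, which moves chromosome arms, were at 2.57%, 1.70% and 2.81%. Tpx2, an activator of the Aurka kinase, kept 3.40% and the microtubule binder Nusap1 4.22%. Of the cytokinesis genes, Kif23 and Racgap1, which together form centralspindlin, were at 4.88% and 3.20%, the midzone bundler Prc1 was at 3.17% and the motor Kif20a at 2.90%.

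The genes of anaphase and mitotic exit had the largest median fall of the roles, -5.19. Ube2c, the enzyme that supplies ubiquitin to the anaphase-promoting complex (APC/C), had the highest control level of the 36, 288, 296 and 316 FPKM, and was 5.82, 7.93 and 7.75 at day 2. Cdc20, the activator of the APC/C in mitosis, went from 146, 136 and 145 to 2.95, 2.74 and 3.33 FPKM. Espl1 (separase, which cuts cohesin) and Cdca3 (an adaptor for protein destruction at mitotic entry) were at 2.55% and 1.79% of control.

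**Figure D3:**
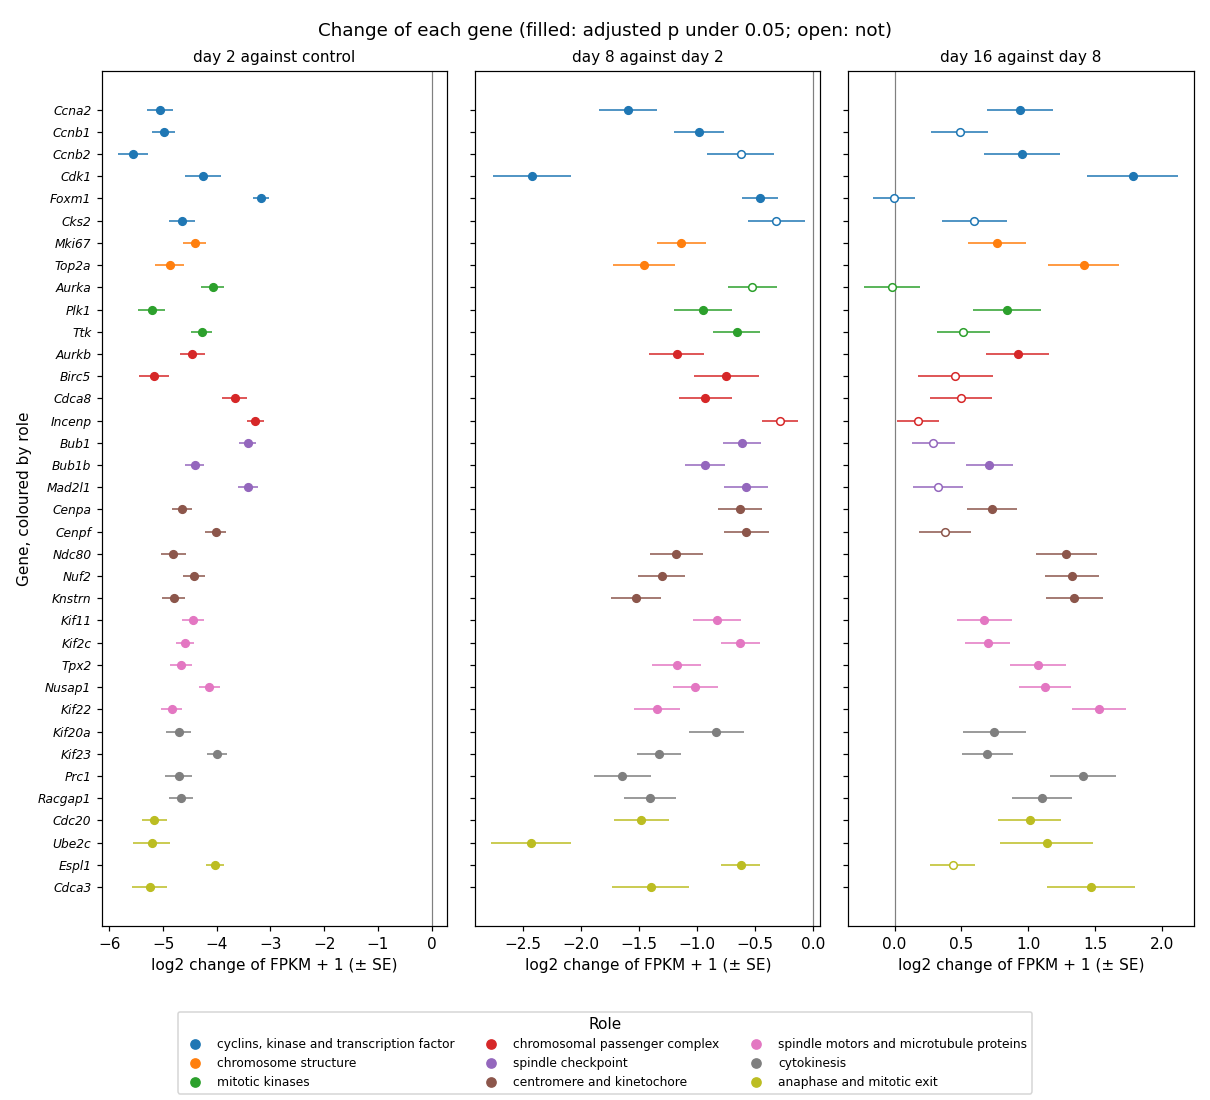
Change of each gene on the log2(FPKM + 1) scale, with its standard error, in 3 comparisons; colour gives the role, filled points passed an adjusted p of 0.05 and open points did not. All 36 points lie below 0 at day 2, 32 are filled below 0 from day 2 to day 8, and 24 are filled above 0 from day 8 to day 16; the panels have different x scales.

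Levels at days 3 and 4 were compared with day 2 after the return at those days had been seen in the group means. At day 3, 11 genes were higher than at day 2 and none was lower, where 7.83% of all genes were called higher. The 11 were Bub1b, Ccnb2, Cenpa, Cenpf, Cks2, Kif11, Kif20a, Kif2c, Nusap1, Plk1 and Top2a. Ccnb2 was 3.55, 7.11 and 5.39 FPKM at day 3, 2.19-fold higher on the log2(FPKM + 1) scale, 1.13 ± 0.29 (SE, adjusted p = 0.0066). Kif2c was 1.43, 2.15 and 1.85 FPKM at day 3 after 0.885, 0.692 and 0.398 at day 2, with no overlap. In 22 of 36 genes every day 3 library was above every day 2 library, against 16.6% of all genes. The ratio of the mean FPKM to day 2 was above 1 in 35 genes, with a median of 1.56, and was 0.984 in Mad2l1. The count of 11 lay between 4 and 9 when any library of the 2 groups was left out, and it was 2 at a pseudocount of 0.1, 7 of 30 tested at a minimum mean of 5 FPKM and 6 with replicates 2 and 3 only. It was 9 after rescaling to a sum of 1000000, where the calls over all genes moved from 767 lower and 700 higher to 510 lower and 806 higher.

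At day 4, 25 genes were higher than at day 2 and none was lower, where 12.8% of all genes were called higher. The count was 12 at a pseudocount of 0.1 and 5 with only these 2 groups in the fit. Library 2 stood well above the others: Cdk1 was 13.7, 24.5 and 9.05 FPKM, Top2a 4.22, 12.3 and 4.17 and Prc1 7.62, 17.2 and 5.90. Without that library 6 genes were called higher, namely Ccnb2, Cks2, Kif20a, Kif2c, Knstrn and Ndc80, and the median change fell from 0.71 to 0.38. Ccnb2 was high in all 3 libraries, at 8.61, 13.3 and 5.51 FPKM, and its change from day 2 was 1.78 ± 0.29 (SE, adjusted p = 3.25e-05). Cks2 was 20.4, 29.0 and 19.1 FPKM at day 4 after 10.1, 8.62 and 11.2 at day 2. The summed DNA replication genes in the same 3 libraries were 323, 421 and 285 FPKM, so library 2 was the highest there as well, by a smaller ratio.

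The next comparison asks whether the genes went on falling with longer starvation. From day 2 to day 8, 32 of the 36 fell and none rose, where 18.4% of all genes were called lower. The median change was -0.96, a level of 0.513 of day 2 on the log2(FPKM + 1) scale, against 0.01 over all genes. In FPKM themselves the fall was deeper: the ratio of day 8 to day 2 means had a median of 0.212. With each library rescaled to a sum of 1000000 FPKM, the median of all genes moved to 0.11 and their calls from 1642 lower and 1559 higher to 1169 lower and 2081 higher, while 30 of the 36 fell and none rose. Every day 8 library was below every day 2 library in 34 genes, against 23.5% of all genes. The 2 that overlapped were Aurka and Incenp. The 4 that did not pass were Aurka (-0.52, adjusted p = 0.0565), Ccnb2 (-0.62, 0.0953), Incenp (-0.29, 0.161) and Cks2 (-0.31, 0.34).

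On the log2(FPKM + 1) scale the deepest of these falls were in Ube2c and Cdk1. Ube2c was 0.455, 0.354 and 0.742 FPKM at day 8, a change of -2.43 ± 0.35 (SE, adjusted p = 3.4e-06). Cdk1 was 1.55, 1.24 and 0.681 FPKM, a change of -2.42 ± 0.34 (SE, adjusted p = 2.44e-06). Prc1 followed with 0.802, 1.15 and 0.583 FPKM and -1.64 ± 0.25 (SE, adjusted p = 7.07e-06), and Ccna2 with 0.323, 0.553 and 0 FPKM and -1.59 ± 0.25 (SE, adjusted p = 1.19e-05). By the ratio of mean FPKM to day 2, Ube2c was again the lowest, at 0.0721. Ttk (0.0824) and Mki67 (0.0848) came next, while Cdk1 was at 0.110 and Prc1 at 0.179. By role, all genes of chromosome structure (2), the spindle checkpoint (3), the centromere and kinetochore (5), the spindle motors and microtubule proteins (5), cytokinesis (4) and anaphase and mitotic exit (4) fell. The exceptions were 2 of 6 regulators of entry, 1 of the 3 genes grouped as mitotic kinases and 1 of 4 passenger proteins.

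The trough at days 10 and 12 was not equally deep. Top2a was 0.0568, 0.0653 and 0 FPKM at day 12, or 0.0388% of control, the lowest share of the 36. Ttk was 0.0640, 0 and 0 at day 10 and 0, 0.133 and 0 at day 12, and Kif2c was 0.116, 0 and 0 and 0.0336, 0.145 and 0. Over the 36 genes 6 values were listed at 0 at day 8, 10 at day 10 and 11 at day 12, and without read depth a 0 cannot be turned into an upper limit. At the other end, Cks2 was 8.87, 7.51 and 12.6 FPKM at day 12, near its day 2 values of 10.1, 8.62 and 11.2. Mad2l1 was 2.81, 3.45 and 2.90 and Incenp 2.63, 2.91 and 2.38 FPKM at day 12, which is 4.33% and 5.46% of control. Foxm1 stood at 3.65%, Bub1 at 2.53%, Cdca8 at 2.57% and Aurka at 2.35% of control at day 12, where the median of the 36 was 0.395%.

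**Figure D4:**
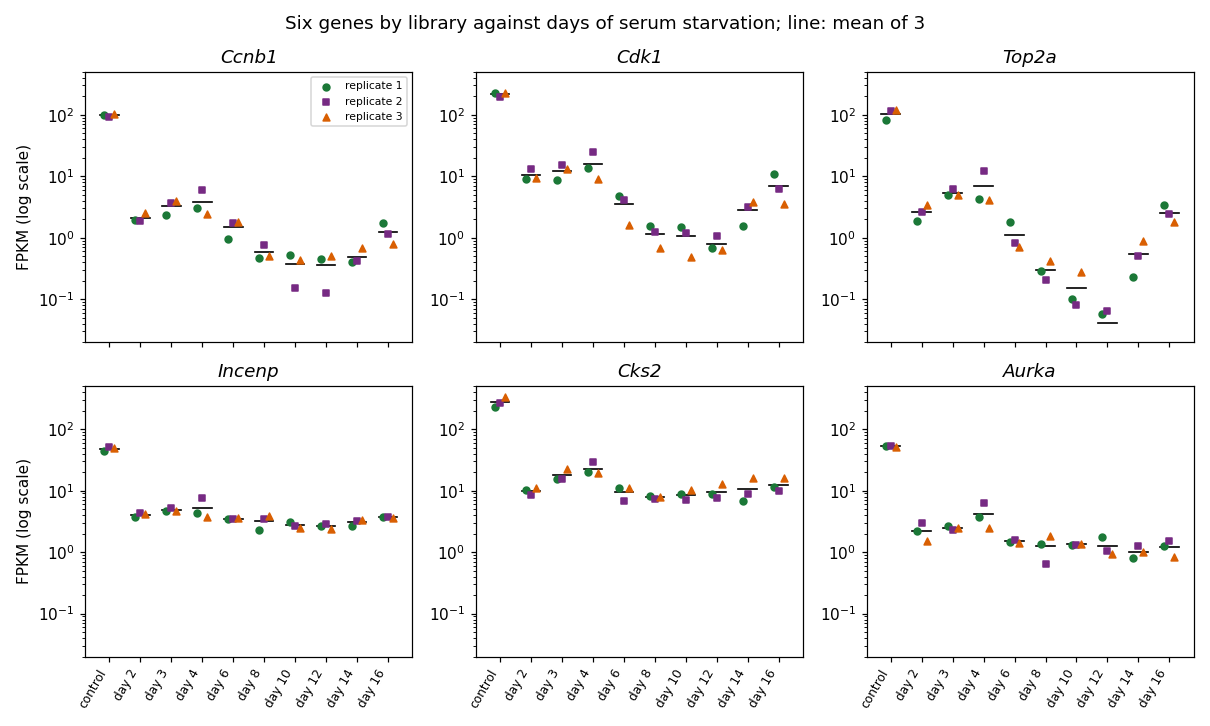
FPKM (log scale) of Ccnb1, Cdk1, Top2a, Incenp, Cks2 and Aurka in each library by days of serum starvation; symbols mark the replicate number and lines the mean of 3. Cdk1 and Top2a dip by day 12 and stand higher at day 16, while Incenp, Cks2 and Aurka vary less from day 6 on; the Top2a value listed at 0 (day 12, library 3) cannot be drawn on a log axis.

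The last part of the course was compared between day 8 and day 16, using the same day 8 libraries. By day 16, 24 of the 36 genes were higher than at day 8 and none was lower, where 15.8% of all genes were called higher. The median change was 0.76, or 1.69-fold on the log2(FPKM + 1) scale, against 0.00 over all genes. The means of 25 of the 36 genes were under 1 FPKM at day 8, so this fold understates the change. The summed FPKM of the 36 genes went from 36.3 ± 0.909 at day 8 to 94.0 ± 21.2 at day 16 (n = 3). Krt8, which makes up nearly all of the summed epithelial markers, was higher as well: the sum was 24.4 ± 2.07 FPKM at day 8 and 68.1 ± 7.0 at day 16 (n = 3). Epcam and Cdh1 were at 0 or near it throughout, and the part of these markers in the result was not tested. Every day 16 library was above every day 8 library in 30 genes, against 22.1% of all genes. Under the same rescaling the median change of all genes moved to -0.16 and the split of all calls from 1412 higher and 1291 lower to 731 higher and 2458 lower. The members' count was then 25 higher and none lower, with a median of 0.89.

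On the log2(FPKM + 1) scale Cdk1 had the largest rise, 1.78 ± 0.34 (SE, adjusted p = 0.000245). It went from 1.55, 1.24 and 0.681 FPKM at day 8 to 10.8, 6.18 and 3.57 at day 16. This scale understates rises from near 0, and relative to its day 8 mean FPKM Cdca3 rose more than Cdk1. Kif22 went from 1.09, 1.63 and 0.324 to 4.78, 4.50 and 4.49 FPKM, 1.53 ± 0.20 (SE, adjusted p = 2.15e-06), with the 3 late libraries close together. Cdca3 went from 0.460, 0.144 and 0 to 3.31, 2.21 and 1.55 FPKM and Top2a from 0.283, 0.205 and 0.411 to 3.36, 2.39 and 1.79; their changes were 1.47 and 1.41. Prc1 rose from 0.802, 1.15 and 0.583 to 5.40, 3.74 and 2.80 FPKM. In all 5 of these genes library 1 of day 16 was the highest of its group, as it was in 29 of the 36 genes.

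By role, the rise passed in all 5 spindle motors and microtubule proteins, all 4 cytokinesis genes and both genes of chromosome structure. It passed in 4 of 5 centromere and kinetochore genes, among them Ndc80 (1.28), Nuf2 (1.33) and Knstrn (1.35), and in 3 of 4 genes of anaphase and exit, with Espl1 at 0.44 (adjusted p = 0.0526). It passed in 3 of 6 regulators of entry (Ccna2, Ccnb2 and Cdk1). It passed in 1 each of the 3 genes grouped as mitotic kinases (Plk1), the 4 passenger proteins (Aurkb) and the 3 checkpoint proteins (Bub1b). The differences between roles were not tested.

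The attachment and spindle genes show how far this return went. Nuf2 was 2.32, 1.75 and 2.18 FPKM at day 2, 0.420, 0.362 and 0 at day 8 and 2.82, 1.87 and 1.79 at day 16, so the day 16 libraries overlapped those of day 2. Tpx2 was 5.23, 6.02 and 6.83 FPKM at day 2, 2.17, 2.16 and 1.99 at day 8 and 7.65, 4.72 and 4.61 at day 16, where library 1 alone exceeded the day 2 range. Racgap1 was 1.04, 1.11 and 0.658 FPKM at day 8 and 3.38, 3.86 and 2.31 at day 16, and Plk1 0.771, 0.643 and 0.918 and 2.94, 2.1 and 1.63, with no overlap in either gene. Mki67 was 0.117, 0.165 and 0.0992 FPKM at day 8 and 1.41, 0.721 and 0.699 at day 16, below every day 2 value in 2 of the 3 libraries.

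Among the 12 genes that did not pass, 2 had a change near 0. Aurka was 1.35, 0.640 and 1.82 FPKM at day 8 and 1.28, 1.49 and 0.849 at day 16, -0.02 ± 0.21 (SE, adjusted p = 0.962). Foxm1 was 0.960, 0.874 and 1.40 and 1.45, 1.13 and 0.668 FPKM, -0.01 ± 0.16 (SE, adjusted p = 0.982). The others were Birc5, Bub1, Ccnb1, Cdca8, Cenpf, Cks2, Espl1, Incenp, Mad2l1 and Ttk, with changes between 0.18 (Incenp) and 0.60 (Cks2). In Bub1, Ccnb1, Cenpf, Cks2, Espl1, Mad2l1 and Ttk every day 16 library was nonetheless above every day 8 one, as in 22.1% of all genes. Ttk was 0.107, 0.0587 and 0 and then 0.741, 0.457 and 0.347 FPKM, and Ccnb1 0.469, 0.750 and 0.511 and then 1.76, 1.16 and 0.794.

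Library 1 of day 16 bears on the count. Without it 17 genes were called higher than at day 8, and Ccnb2, Kif11, Kif20a, Kif23, Mki67, Plk1 and Ube2c were not among them. With libraries 2 and 3 of every group alone the count was 14 and the median change 0.64. Ube2c was spread widely at day 16, 5.35, 3.07 and 0.410 FPKM, and its lowest library overlapped the day 8 values of 0.455, 0.354 and 0.742.

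Day 16 was also set against day 12, the lowest starved group for 18 of the 36, a comparison added for that reason. Picking the lowest group favours a higher day 16, so its count is given as a description. Of the 36 genes 27 were higher at day 16 and none was lower, where 6.78% of all genes were called higher, with a median change of 0.89. The count was 13 with replicates 2 and 3 only and 15 at a pseudocount of 5. Knstrn went from 0.197, 0.307 and 0 to 3.59, 2.18 and 2.07 FPKM, 1.61 ± 0.22 (SE, adjusted p = 4.78e-06). Ccnb1, Birc5, Bub1 and Espl1 passed here and not against day 8, although the difference between these comparisons, which share the day 16 libraries, was not tested. Aurka, Cdca8, Cenpf, Cks2, Foxm1, Incenp, Mad2l1, Ttk and Ube2c did not pass.

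Set against control, the day 16 levels were still low. All 36 were lower than control, where 35.0% of all genes were called lower, with a median of -4.68. As at day 2, a fall was bound to appear in the 6 genes that passed the filter through the control group. Day 16 means ran from 0.981% of control in Ube2c to 7.64% in Incenp, with a median of 2.37%, beside 2.80% at day 2. The ratio of day 16 to day 2 means had a median of 0.795 and was above 1 in 9 genes, the highest being Ccnb2 at 1.47 and the lowest Ube2c at 0.411. Ccnb2 was 4.35, 2.13 and 1.65 FPKM at day 16 and 2.43, 1.78 and 1.34 at day 2, which overlap.

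Other genes with a part in mitosis moved in the same directions. Of 68 genes on a second list of mitosis genes 56 were tested, and the other 12 were not found in the expression table under the symbols used. At day 2, 55 of the 56 (98.2%) were lower and none higher, with a median change of -3.39. On the log2(FPKM + 1) scale the largest falls were in Pttg1 (securin, the inhibitor of separase) and in Kifc1, a minus-end motor. Pttg1 went from 80.7 ± 8.92 to 1.82 ± 0.891 FPKM and Kifc1 from 75.2 ± 1.93 to 1.68 ± 0.503. From day 2 to day 8, 36 fell and 1 (Zwint) rose, and from day 8 to day 16, 31 rose and 1 (Gtse1) fell. Pttg1 rose from 0.163 ± 0.283 at day 8 to 2.82 ± 1.36 FPKM at day 16 and the kinase gene Pbk from 0.107 ± 0.0941 to 2.16 ± 0.840. At day 4, 24 of the 56 were higher than at day 2 and none was lower.

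Smaller median changes were found in the structural machinery and the APC/C. Of 11 condensin and cohesin subunits tested, 10 (90.9%) were lower at day 2, with a median of -0.79, and the largest fall was in the condensin subunit Smc2, from 36.4 ± 7.34 to 5.18 ± 0.920 FPKM. None of the 11 passed in limma between day 8 and day 16, and 1 was lower at an unadjusted p under 0.05. Of 14 APC/C subunits and activators, 6 (42.9%) were lower and 1 (7.14%) higher at day 2, beside 30.7% and 30% of all genes tested, with a median of -0.22. Fzr1 (Cdh1, the APC/C activator of late mitosis and G1) fell from 174 ± 6.49 to 63.0 ± 3.02 FPKM and was thus at a far higher level than Cdc20, which was at 3.01 ± 0.302 FPKM at day 2. None of the 14 passed between day 8 and day 16, and none at an unadjusted p under 0.05. Under the rescaling to a sum of 1000000, 4 condensin and cohesin subunits and 2 APC/C genes were called lower in that comparison.

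The genes of the DREAM complex and its MuvB core, the part that binds the CHR element, also moved unevenly at day 2: of 9 tested, 6 (66.7%) were lower and 1 (11.1%) was higher. Rbl2 (p130, the pocket protein of quiescent cells) rose from 4.16 ± 0.106 to 9.79 ± 0.380 FPKM (adjusted p = 4.44e-11). Rbl1 (p107, its relative in dividing cells) fell from 26.6 ± 6.26 to 4.05 ± 1.20 FPKM. Lin54, the MuvB subunit that contacts DNA, fell from 7.25 ± 1.08 to 2.83 ± 0.272. None of the 9 passed in limma between day 8 and day 16, nor at an unadjusted p under 0.05, with 2 called lower under the rescaling to a sum of 1000000.

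DNA replication genes were also low at day 2. All 38 tested were lower at day 2, with a median of -2.68, beside -4.62 for the 36 mitosis genes. At day 3, 2 of the 38 (5.26%) were higher than at day 2 and 1 was lower, where 7.83% of all genes were called higher. At day 4, 2 (5.26%) were higher and 2 were lower, where 12.8% of all genes were called higher. The medians were 0.05 and 0.02, and neither share was above that of all genes. The 36 mitosis genes had medians of 0.49 and 0.71 in the same comparisons. These 2 comparisons were added after the return of the mitosis genes had been seen, which favours those genes here. The day 4 median of the mitosis genes was also lower without library 2 of day 4, as given above. From day 2 to day 8, 25 replication genes fell and 1 (Pcna) rose, and from day 8 to day 16, 23 rose and none fell, 14 under the rescaling. On the log2(FPKM + 1) scale Rrm2, a subunit of the enzyme that makes deoxynucleotides, had the largest rise, from 2.04 ± 0.715 to 13.1 ± 3.92 FPKM. The helicase subunit Mcm5 went from 0.213 ± 0.0845 to 3.01 ± 0.424. As sums, the replication genes were 311 to 341 FPKM at day 2, 221 to 227 at day 8 and 292 to 343 at day 16. The lists were not tested against each other, and these comparisons share libraries.

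**Figure D5:**
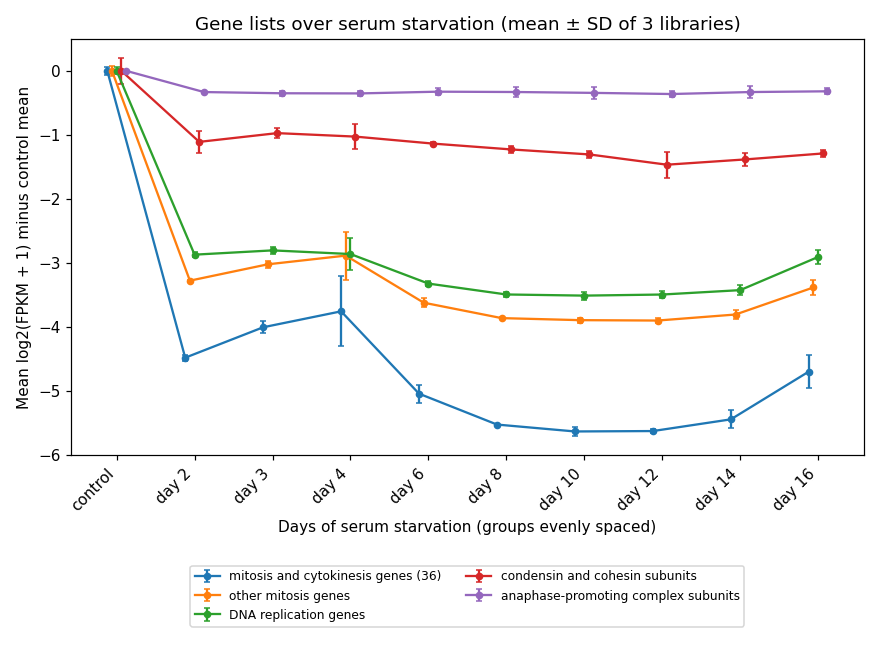
Mean of log2(FPKM + 1) over each gene list minus its control mean, by days of serum starvation; points are means of 3 libraries and bars their SD. The 36 mitosis and cytokinesis genes lie lowest at every starved time, at -4.49 at day 2, -3.76 at day 4, -5.64 at day 10 and -4.70 at day 16, and the bar of the 36 genes is widest at day 4.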

How the data were processed

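RNA sequencing values came as a single table of deposited FPKM, which the authors made on rat build rn6, with Cuffnorm 2.2.1, Cufflinks and TopHat2 2.1.1 among the tools named, per the submitters' processing notes. RNA had a quality number of at least 7.5, per the labels' protocols. The annotation, any filter, the scaling across libraries and the read counts are not given in the sources used here, so depth is unknown and no counting interval can be computed. All 30 columns were matched to samples by title. FPKM sums per library ran from 582501 to 785072 and 9875 to 10580 genes were above 0.

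Genes averaging 1 FPKM or more over the 30 libraries were kept (8940 of 17353) and analysed as log2(FPKM + 1). The 10 group means entered 1 linear model per gene (limma 3.58.1 under R 4.3.3), whose variances were moderated by empirical Bayes with a trend on mean level. All tests are two-sided, p-values were adjusted by the Benjamini-Hochberg method over all 8940 genes, and a gene was called at an adjusted p under 0.05. The script was tested on simulated data. Tables and plots were made in Python 3.11.15 with pandas 2.3.3, numpy 2.4.6 and matplotlib 3.10.9.

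The comparisons were day 2 and day 16 against control, day 8 against day 2 and day 16 against day 8. Day 3 and day 4 against day 2 and day 16 against day 12 were added after the data were seen. The 36 genes and the other lists were chosen with earlier results of these data known. From each other list the text names up to 2 called genes with the largest rise and 2 with the largest fall per comparison. Alternatives covered scaling, pseudocount, filter, the groups in the fit, a replicate block, the trend and leaving out single libraries.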

Additional observations from a re-analysis of the deposited data

How the results depend on the processing

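The falls from control to day 2 and to day 16 held in all 36 genes under every alternative run in which a gene was tested. A minimum mean of 5 FPKM left 30 of the 36. In the 6 genes that passed the main filter through the control group a fall was bound to appear. From day 2 to day 8, between 29 and 32 genes were called lower without single libraries. The count was 26 with replicates 2 and 3 only and 25 under the alternative with the fewest calls. From day 8 to day 16, between 17 and 25 were called higher without single libraries, the lowest without day 16 library 1, and 14 with replicates 2 and 3 only. For day 3 against day 2 the range without single libraries was 4 to 9, with 2 at a pseudocount of 0.1, 7 of 30 tested at a minimum mean of 5 FPKM, and 6 with replicates 2 and 3 only. For day 4 against day 2 the range was 6 to 30, the lowest without day 4 library 2, with 12 at a pseudocount of 0.1, 5 with only the groups compared in the fit, and 16 with replicates 2 and 3 only. For day 16 against day 12 the range was 19 to 25, with 15 at a pseudocount of 5 and 13 with replicates 2 and 3 only. No gene was called in the opposite direction in these counts. The cause of these changes was not tested.

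Some genes without a call changed sign. From day 8 to day 16, the change of Foxm1 was -0.133 to 0.145 without single libraries, 0.00522 with equal upper quartiles and 2.23e-05 at a pseudocount of 5, and that of Aurka was -0.234 to 0.157 without single libraries and 0.00416 at a pseudocount of 0.1. From day 2 to day 3, Mad2l1 was at -0.184 to 0.0881 without single libraries, 0.0161 after rescaling to a sum of 1000000 and 0.0138 with replicates 2 and 3 only. In the same comparison Aurka ranged from -0.0407 to 0.288, Aurkb from -0.00437 to 0.369 and Foxm1 from -0.0117 to 0.273 without single libraries, and with replicates 2 and 3 only Foxm1 was at -0.0041 and Bub1 at -0.00566. From day 2 to day 4 the ranges were -0.0949 to 0.347 for Bub1, -0.00975 to 0.208 for Cdca8, -0.00699 to 0.424 for Incenp and -0.126 to 0.389 for Mad2l1, each lowest without day 4 library 2. For day 16 against day 12, Foxm1 ranged from -0.00195 to 0.276 and Aurka from -0.109 to 0.143 without single libraries, Foxm1 was at -0.0451 after quantile normalization and -0.107 with replicates 2 and 3 only, and Aurka at 0.114 with the latter. The cause was not tested.

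Deviations from group means were correlated between libraries with the same replicate number, over 45 pairs per number. Libraries numbered 1 deviated in the same direction, with correlations of 0.0773 to 0.727 and a mean of 0.36. For number 2 the correlations ran from -0.206 to 0.323 and for number 3 from -0.111 to 0.446. The labels do not say what a number shares, so the numbers were not taken to pair the libraries in the main fit. As a hint from the data, 23 of 30 libraries correlated best with their own number. With a replicate block the counts were 36, 33, 27 and 36 for day 2 against control, day 8 against day 2, day 16 against day 8 and day 16 against control, and 12, 27 and 27 for the 3 added comparisons.

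Read depth, and with it the error of values near 0 FPKM, is unknown, which limits most values of days 8 to 14.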
